A study of Mus musculus with 32 samples.

Results

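Paqr3 and Zbtb18 were each read by 1 probe on arrays of mouse bone marrow-derived cells that differed in Pparg genotype, and both were chosen by their signals on these arrays, which an earlier look had shown to be higher in cells labelled as lacking Pparg. They are 2 of the 319 genes that a probe could be tied to by symbol. The levels of both genes did follow that description in macrophages, in 3 of the 4 Pparg fl/- mice, but not in immature dendritic cells (iDCs), where Paqr3 was lower in Pparg fl/- LysCre cells than in the controls and Zbtb18 lay at about the same level in both genotypes. The genes are therefore described here by where they were high and low, and the genotype comparison carries no test, since it chose them.

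The cells came from 8 C57Bl/6 mice. Mice 1 to 4 were Pparg+/- LysCre, so that they carried the LysCre transgene and lacked 1 Pparg allele, and mice 5 to 8 were Pparg fl/- LysCre, in which Cre, driven in myeloid cells, is meant to delete the remaining loxP-flanked allele. No mouse with both Pparg alleles and none without Cre was among the arrays used here. Bone marrow of each mouse was grown for 9 days by the labels, 1 day less than the methods state, with 20 ng/ml M-CSF and 20 ng/ml IL-4, which gave macrophages, or with 20 ng/ml GM-CSF and 20 ng/ml IL-4, which gave iDCs, and each culture received vehicle (DMSO:ethanol) or 1 μM rosiglitazone (RSG), a synthetic agonist of PPARγ. This gave 32 arrays in 8 groups of 4 mice. These are cultures of mixed cells read in bulk, in which a smaller share of a cell type and less RNA per cell cannot be told apart.

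PPARγ is a nuclear receptor that binds DNA as a partner of RXR and is switched to activation by fatty acid ligands and by drugs such as RSG. In macrophages and dendritic cells it is known for its control of lipid handling genes, and IL-4 raises its expression. PAQR3 is a membrane protein of the Golgi from the progestin and adipoQ receptor family, known for holding Raf kinase at the Golgi, which damps signaling to ERK, and for anchoring the SCAP-SREBP complex that controls sterol synthesis. ZBTB18, also called RP58 or ZFP238, is a zinc finger protein with a BTB domain that represses transcription and is best known from the developing brain and muscle.

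The 250 bases upstream of the annotated starts are shown because levels of both genes moved together across the arrays, and because PPARγ, STAT6 (the transcription factor downstream of IL-4) and ZBTB18 itself bind DNA at known short motifs. They are from RefSeq on build GRCm38.p6, read 5′ to 3′ along each gene's strand, and capitals mark motif matches. The Paqr3 window lies at chr5:97111597-97111846 on the minus strand, and the window at the first of 5 Zbtb18 starts lies at chr1:177442101-177442350 on the plus strand.

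Paqr3 upstream: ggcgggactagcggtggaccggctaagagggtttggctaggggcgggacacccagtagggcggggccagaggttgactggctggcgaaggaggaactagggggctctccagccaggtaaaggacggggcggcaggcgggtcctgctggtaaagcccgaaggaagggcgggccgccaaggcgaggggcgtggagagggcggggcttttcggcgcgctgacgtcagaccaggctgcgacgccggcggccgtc

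Zbtb18 upstream: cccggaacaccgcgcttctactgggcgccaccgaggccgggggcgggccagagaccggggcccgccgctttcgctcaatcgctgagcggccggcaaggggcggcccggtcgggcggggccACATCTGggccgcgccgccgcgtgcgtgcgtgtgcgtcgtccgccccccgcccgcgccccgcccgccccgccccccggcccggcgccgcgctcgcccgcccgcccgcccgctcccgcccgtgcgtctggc

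Motifs were searched for on both strands. The PPARγ-RXR element AGGTCANAGGTCA was in neither window and is in 0.037% of the 27025 promoter windows of the same length, and its single repeat AGGTCA, which the full element contains, was in neither window and is in 13.8% of all. The STAT6 motif TTCNNNNGAA was in neither window and is in 5.86% of all. The letters ACATCTG, the core of the ZBTB18 motif, were in the Zbtb18 window, 130 bases before the start, and are in 3.8% of all windows. Of the other Zbtb18 starts, only the fifth had that core, on the opposite strand and 190 bases before the start. These matches are letters in a window and were not tied to binding. The windows held 70.8% G and C at Paqr3 and 84.0% at the first Zbtb18 start, and 37.6% to 42.8% at the other 4 Zbtb18 starts, against a median of 52.0% over all windows.

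Mouse 5 stood apart from the other Pparg fl/- LysCre mice across the array and has to be named before any result. Among the probes whose levels in mice 6, 7 and 8 did not overlap those of mice 1 to 4, mouse 5 lay at a median of 0.11 to 0.29 of the way from the Pparg+/- LysCre mean to the mean of mice 6 to 8 in the 4 cultures. These were 4936 to 6088 probes per culture. When each of mice 6, 7 and 8 was instead set against the other 3 Pparg fl/- LysCre mice, mouse 5 included, it lay at a median of 0.79 to 1.28 of the way to the mean of those 3, over the 2366 to 3276 probes that then did not overlap. The scales of these positions differ, so they are not compared further. The genotype differences, cell type differences and RSG effects of Paqr3 and Zbtb18 that rest on this group are therefore given with and without mouse 5. Why this mouse differs was not tested. The number of detected probes, 13595 to 16683 per array, and the median signal, 270 to 614 per array, overlapped between the genotypes in each of the 4 cultures.

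The probe for Paqr3 was listed under AK018174.1 and the probe for Zbtb18 under NM_013915.1. The Zbtb18 identifier was matched through RefSeq. The Paqr3 identifier was paired with the symbol only in a supplementary table of the study, so the values below are those of that probe and depend on that pairing. Both probes were detected on all 32 arrays, at a signal-to-noise ratio of 3.67 to 38.6 for Paqr3 and 26.0 to 66.0 for Zbtb18, and no array carried a quality flag for either. Levels are given as log2 signal after quantile normalization, on which a step of 1 is a doubling, and the level of a probe was not set against that of another.

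Paqr3 was low in macrophages of the controls. In vehicle-treated Pparg+/- LysCre macrophages its level was 9.15, 9.96, 9.45 and 9.93 in mice 1 to 4, and in Pparg fl/- LysCre macrophages it was 9.78, 11.40, 11.30 and 10.80 in mice 5 to 8. Mice 6, 7 and 8 lay above every control mouse, and mouse 5 lay among the controls. The means were 9.62 ± 0.39 (SD, n = 4) and 10.82 ± 0.74, a difference of 1.20 or 2.30-fold, and without mouse 5 the difference was 1.55 or 2.92-fold. In the deposited signals, before normalization, the same arrays read 449, 1029.5, 556 and 1073 in the controls and 848, 3630.2, 2473 and 1819 in mice 5 to 8.

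With RSG the picture in macrophages was alike for Paqr3. The controls were at 10.24, 9.64, 9.63 and 9.41 in mice 1 to 4 and the Pparg fl/- LysCre cells at 9.82, 11.60, 11.28 and 10.98 in mice 5 to 8. Again mice 6 to 8 were above all controls and mouse 5 was between them. The difference of the means was 1.19 or 2.29-fold, and 1.56 or 2.95-fold without mouse 5.

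Zbtb18 showed the same arrangement in macrophages. With vehicle its level was 14.74, 14.88, 14.67 and 14.98 in mice 1 to 4, and 14.89, 16.04, 16.08 and 15.77 in mice 5 to 8. The control levels lay close together, mice 6 to 8 lay above all of them, and mouse 5 was within their range. The means were 14.82 ± 0.14 (SD, n = 4) and 15.69 ± 0.56, a difference of 0.88 or 1.83-fold, which was 1.14 or 2.21-fold without mouse 5. The deposited signals of these arrays were 23578, 33630.1, 23351 and 42191 in the controls and 30927, 87341, 62042 and 54866 in mice 5 to 8.

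With RSG, Zbtb18 in macrophages was at 14.23, 14.32, 14.62 and 14.87 in mice 1 to 4 and at 15.02, 16.09, 16.13 and 15.84 in mice 5 to 8. Here all 4 Pparg fl/- LysCre arrays were above all controls, with mouse 5 next to the highest control. The difference of the means was 1.26 or 2.39-fold, and 1.51 or 2.84-fold without mouse 5. Such a separation upward was found for 8.2% of the 16620 tested probes in RSG-treated macrophages and for 5.83% in vehicle-treated ones. Without mouse 5, both genes separated in both treatments, as did 17.8% of the probes with vehicle and 18.2% with RSG. Since the genotype comparison chose the genes, nothing is read from these shares.

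**Figure D1:**
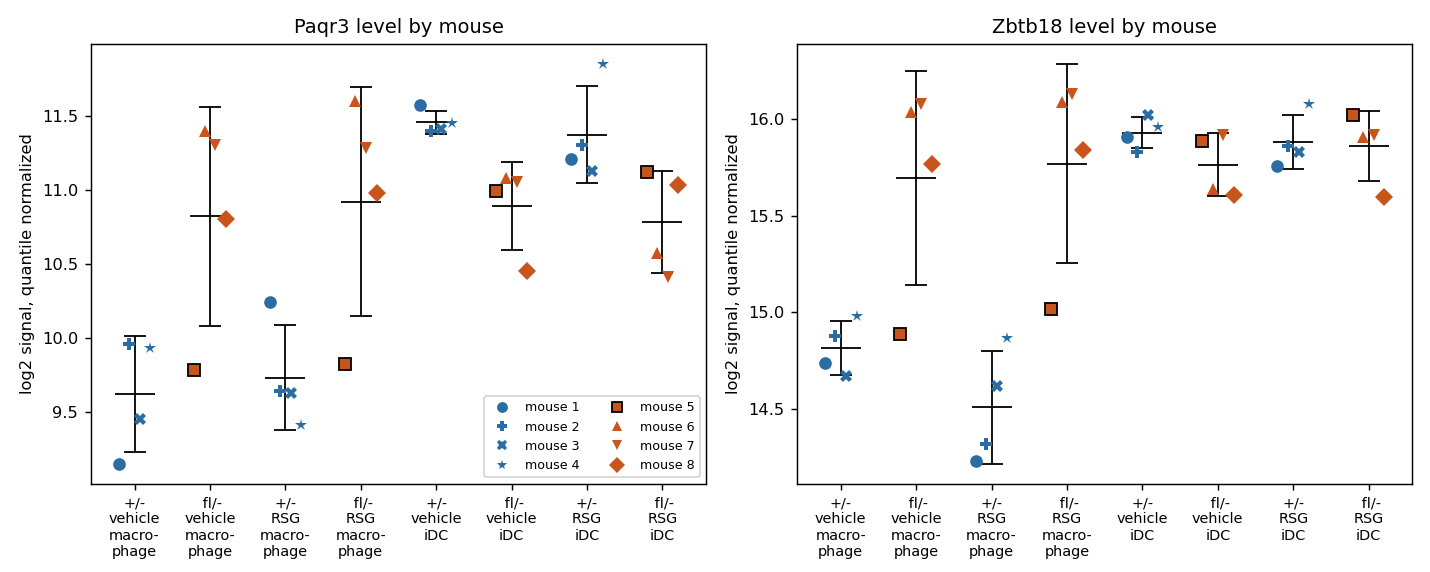
Level of Paqr3 (left) and Zbtb18 (right) on each array, as log2 signal after quantile normalization, for Pparg+/- LysCre (blue, mice 1 to 4) and Pparg fl/- LysCre cells (orange, mice 5 to 8) by cell type and treatment, with horizontal bars at the mean and error bars of 1 SD over 4 mice. The Pparg+/- LysCre macrophages and the macrophages of mouse 5 (outlined squares) are low for both genes, and the axes do not start at 0.

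In iDCs the order of the genotypes was not the one seen in macrophages. Paqr3 with vehicle was at 11.57, 11.40, 11.41 and 11.45 in the controls and at 10.99, 11.08, 11.05 and 10.45 in mice 5 to 8. All 4 Pparg fl/- LysCre arrays, mouse 5 included, were below all controls, with means of 10.89 ± 0.30 and 11.46 ± 0.08 (SD, n = 4), a difference of -0.56 or 1.48-fold. With RSG the controls were at 11.21, 11.30, 11.13 and 11.85 and mice 5 to 8 at 11.12, 10.57, 10.41 and 11.03. The groups again did not overlap, although mouse 5 was within 0.01 of the lowest control, and the difference was -0.59. Without mouse 5 the differences were -0.60 with vehicle and -0.70 with RSG. Such a separation downward was found for 8.76% of the tested probes with vehicle and 8.99% with RSG, and, as above, nothing is read from it.

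Zbtb18 in iDCs overlapped between the genotypes in both treatments. With vehicle it was at 15.91, 15.83, 16.02 and 15.96 in the controls and at 15.89, 15.64, 15.92 and 15.61 in mice 5 to 8, a difference of -0.16. With RSG it was at 15.76, 15.86, 15.83 and 16.08 in the controls and at 16.02, 15.91, 15.92 and 15.60 in mice 5 to 8, a difference of -0.02. Without mouse 5 the differences were -0.20 and -0.08. The iDCs of mouse 5 were among the other iDCs for both genes, so the low values of this mouse were those of its macrophages.

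From lowest to highest, the mean of Paqr3 ran from Pparg+/- LysCre macrophages (9.62 with vehicle, 9.73 with RSG) through the 4 Pparg fl/- LysCre groups (10.78 in RSG-treated iDCs, 10.82 in vehicle-treated macrophages, 10.89 in vehicle-treated iDCs and 10.92 in RSG-treated macrophages) to Pparg+/- LysCre iDCs (11.37 with RSG, 11.46 with vehicle). The step from the second to the third group was 1.06, and the other 6 steps were 0.027 to 0.45. For Zbtb18 the Pparg+/- LysCre macrophages were lowest too (14.51 with RSG, 14.82 with vehicle), and the other 6 groups lay between 15.69 and 15.93. The steps from the first to the second and from the second to the third group were 0.31 and 0.88, and the others were 0.0034 to 0.09. For neither gene are the steps set against a spread, since the genotype comparison chose the genes. For both genes the spread was widest in the Pparg fl/- LysCre macrophages, with an SD of 0.74 to 0.77 for Paqr3 and 0.52 to 0.56 for Zbtb18. Without mouse 5 these were 0.31 to 0.32 and 0.16 to 0.17.

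The difference between the cell types asks whether the genes mark the way the cells were grown. It is given as a description with no test, because the macrophage arrays in it also enter the genotype comparison that chose the genes, and choosing genes that were low in Pparg+/- LysCre macrophages can enlarge it. Both genes were higher in iDCs than in macrophages of the same Pparg+/- LysCre mice, by 3.13-fold to 3.56-fold in the mean for Paqr3 and by 2.16-fold to 2.59-fold for Zbtb18, and the direction was the same in each of the 4 mice with either treatment. In Pparg fl/- LysCre mice the mean differences were near 0.

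In vehicle-treated cells of mice 1 to 4, Paqr3 was higher in iDCs by 2.42, 1.44, 1.95 and 1.52. The mean was 1.83 ± 0.46 (SD of the 4 differences), or 3.56-fold. With RSG the differences were 0.97, 1.66, 1.5 and 2.45, and their mean of 1.64 ± 0.61 (SD) was 3.13-fold. All iDC arrays of these mice were above all macrophage arrays.

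With vehicle, Zbtb18 was higher in iDCs by 1.17, 0.94, 1.35 and 0.97 in mice 1 to 4. The mean was 1.11 ± 0.19 (SD of the 4 differences) or 2.16-fold. With RSG the differences were 1.53, 1.55, 1.21 and 1.21, a mean of 1.37 ± 0.19 (SD) or 2.59-fold. Here too the arrays of the cell types did not overlap. A higher level in iDCs was called for 13.5% of all tested probes with vehicle and for 14.3% with RSG, and an upward separation of the arrays was found for 20.3% and 21.1%. Nothing is read from these shares.

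In Pparg fl/- LysCre mice the difference depended on the mouse. For Paqr3 with vehicle it was 1.21 in mouse 5 and -0.32, -0.26 and -0.35 in mice 6, 7 and 8, and with RSG it was 1.30 in mouse 5 and -1.03, -0.87 and 0.05 in the others. For Zbtb18 it was 1.01 in mouse 5 against -0.40, -0.17 and -0.15 with vehicle, and 0.99 against -0.18, -0.21 and -0.24 with RSG. Mouse 5 was thus near the Pparg+/- LysCre mice, while in mice 6 to 8 iDCs were at or below macrophages, apart from Paqr3 in RSG-treated cells of mouse 8.

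The mean differences over all 4 Pparg fl/- LysCre mice were 0.07 with vehicle and -0.14 with RSG for Paqr3, with an SD of 0.76 and 1.07. For Zbtb18 they were 0.07 and 0.09, with an SD of 0.63 and 0.6. In this genotype 27.6% of the probes were called different between the cell types with vehicle and 24.6% with RSG. Leaving out mouse 5 turned 3 of these 4 differences below 0. They were then -0.31 and -0.62 for Paqr3 with vehicle and RSG, and -0.24 and -0.21 for Zbtb18.

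**Figure D2:**
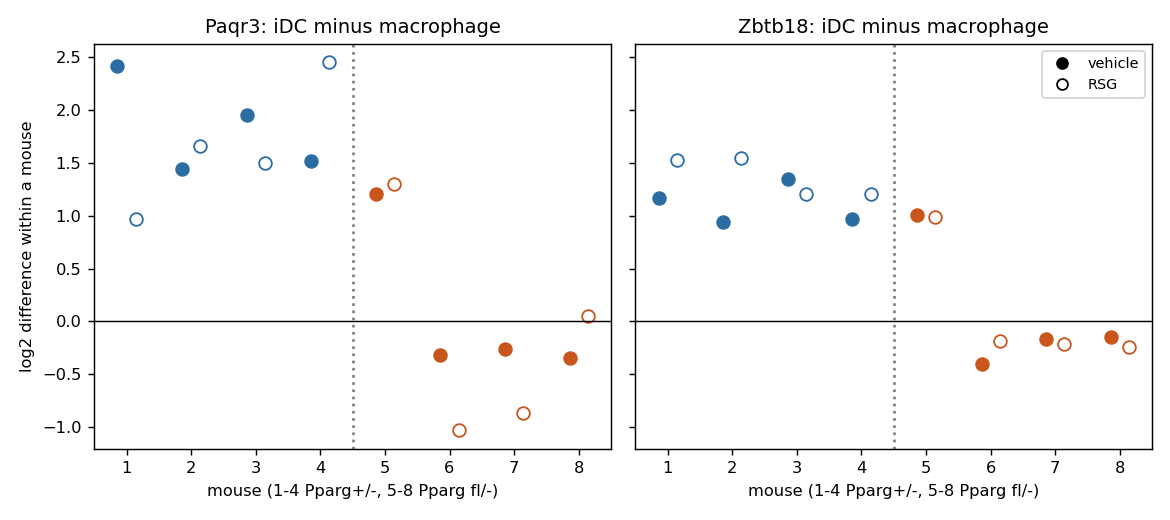
Difference in log2 signal between iDCs and macrophages of the same mouse, for Paqr3 (left) and Zbtb18 (right), with filled circles for vehicle-treated and open circles for RSG-treated cells, blue for Pparg+/- LysCre and orange for Pparg fl/- LysCre mice. Mice 1 to 4 are between 0.94 and 2.45, mouse 5 is between 0.99 and 1.30, and mice 6 to 8 are at 0.05 or lower.

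RSG treatment asks whether the ligand acts on these genes through the receptor. No effect of RSG was called on either gene, in either cell type or genotype. In Pparg+/- LysCre macrophages 1.2% of the probes were called under RSG and in Pparg+/- LysCre iDCs 6.01%, against 0% and 0.692% in the macrophages and iDCs of Pparg fl/- LysCre mice. In Pparg fl/- LysCre macrophages 497 probes had an unadjusted p under 0.05 by limma and 404 by the methods' t-test, which also called 0. These shares were unstable. The 199 probes called in Pparg+/- LysCre macrophages became 50 to 395 when 1 mouse was left out (50 without mouse 1, 395 without mouse 5), the 999 in Pparg+/- LysCre iDCs became 588 to 1266, and the 115 called in Pparg fl/- LysCre iDCs became 27 to 94 (27 without mouse 6, 29 without mouse 8) and 0 by the methods' t-test. With the mouse as a replicate block the counts were 494, 1291 and 202 in these settings, and 5 in place of 0 in Pparg fl/- LysCre macrophages.

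For Paqr3 in Pparg+/- LysCre macrophages, RSG was followed by a difference of 1.09 in mouse 1, -0.32 in mouse 2, 0.18 in mouse 3 and -0.52 in mouse 4. The directions were mixed, and the mean of 0.10 had a 95% interval of -0.75 to 0.96 (adjusted p = 0.968, limma). In the iDCs of these mice it was -0.37, -0.09, -0.28 and 0.40, with a mean of -0.08 (-0.51 to 0.34, adjusted p = 0.858). In Pparg fl/- LysCre cells the mean was 0.10 in macrophages (-0.75 to 0.95, adjusted p = 1, limma) and -0.11 in iDCs (-0.53 to 0.31, adjusted p = 0.924), and without mouse 5 it was 0.12 and -0.19 (adjusted p = 1 and 0.846). Intervals of this width leave room for changes of up to 1.94-fold in macrophages. The fits had no term for the mouse, so the widths include the spread between mice. Within Pparg+/- LysCre mice the SD of the differences was 0.72 in macrophages and 0.34 in iDCs. Within Pparg fl/- LysCre mice it was 0.11 and 0.57.

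Zbtb18 in Pparg+/- LysCre macrophages was lower with RSG in each of the 4 mice, by -0.51, -0.56, -0.05 and -0.11. The mean was -0.31 with a 95% interval of -0.90 to 0.29 (adjusted p = 0.801, limma), which did not pass the test. In Pparg fl/- LysCre macrophages it was higher with RSG in each of the 4 mice, by 0.05 to 0.13. The mean was 0.08 (-0.52 to 0.67, adjusted p = 1, limma). These fits had no term for the mouse, so the intervals also hold the spread between mice. With the mouse as a block, the adjusted p was 0.925 (limma) in Pparg fl/- LysCre macrophages. No share of all probes with such directions is given, and nothing is read from them. In iDCs the mean was -0.04 in Pparg+/- LysCre cells (-0.29 to 0.20, adjusted p = 0.878, limma) and 0.09 in Pparg fl/- LysCre cells (-0.15 to 0.34, adjusted p = 0.870). Without mouse 5 the means in Pparg fl/- LysCre cells were 0.06 in macrophages and 0.08 in iDCs (adjusted p = 1 and 0.895, limma). The intervals in iDCs were the narrowest in these fits and ran from 0.82-fold to 1.26-fold. Within Pparg+/- LysCre mice the SD of the differences was 0.27 in macrophages and 0.15 in iDCs. Within Pparg fl/- LysCre mice it was 0.04 and 0.13.

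The difference in RSG effect between the genotypes was not called for either gene. It was -0.0054 for Paqr3 and 0.38 for Zbtb18 in macrophages (adjusted p = 1.00 for both, limma), and -0.025 and 0.14 in iDCs (adjusted p = 0.989 and 0.844). Without mouse 5 it was 0.014 and 0.36 in macrophages and -0.10 and 0.13 in iDCs, again with no call (adjusted p of 0.804 to 1.00, limma). Over all probes, 0.00602% were called in macrophages and 0.439% in iDCs. The former is 1 probe, which became 10 without mouse 5 and 0 or 1 when another mouse was left out. The latter are 73 probes, which became 1 to 15 when a mouse other than mouse 5 was left out, 210 without mouse 5 and 2 by the methods' t-test. These tests share arrays with the genotype comparison.

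**Figure D3:**
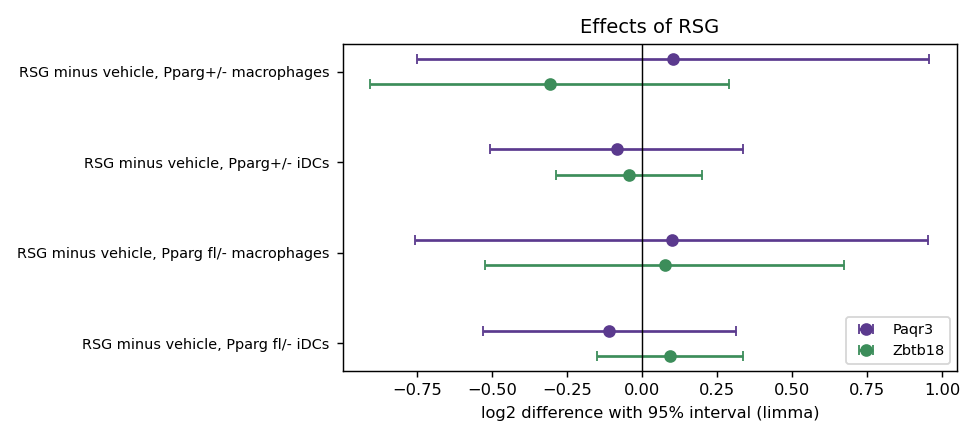
Mean log2 difference with its 95% interval from limma for Paqr3 (purple) and Zbtb18 (green), for RSG minus vehicle in each cell type and genotype. Each of the 8 intervals spans 0, and those in iDCs are the narrower ones. The fits had no term for the mouse, so the widths include the spread between mice.

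**Figure D4:**
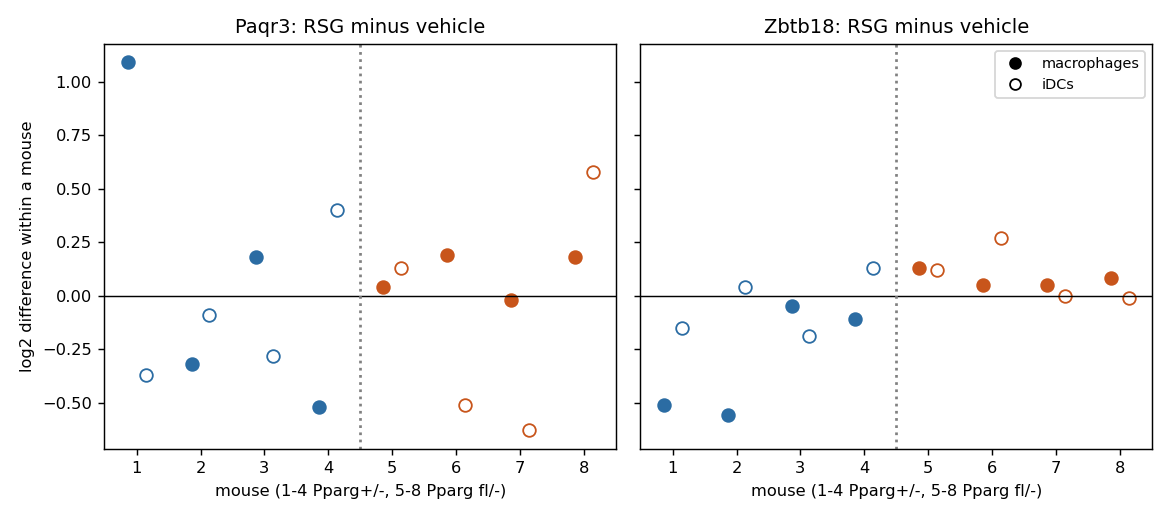
Difference in log2 signal between RSG-treated and vehicle-treated cells of the same mouse for Paqr3 (left) and Zbtb18 (right), with filled circles for macrophages and open circles for iDCs, blue for Pparg+/- LysCre and orange for Pparg fl/- LysCre mice. Paqr3 scatters from -0.63 to 1.09 with no common direction, and Zbtb18 stays between -0.56 and 0.27.

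The levels of the 2 genes went together. Over the 32 arrays Pearson's r was 0.879 and Spearman's rho 0.824, in the 16 macrophage arrays r was 0.888, and in the 16 iDC arrays it was 0.432. In deviations from the group means r was 0.705 over the 32 arrays. These are descriptions, since 4 arrays share a mouse and the arrays fall into a low cluster, made of the Pparg+/- LysCre macrophages and those of mouse 5, and a high one. Both genes were also chosen for a like pattern. Among the 16619 other probes Zbtb18 was the 32nd most like Paqr3, with 95% of the probes at an r below 0.670, and Paqr3 was the 72nd most like Zbtb18, with 95% below 0.710.

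**Figure D5:**
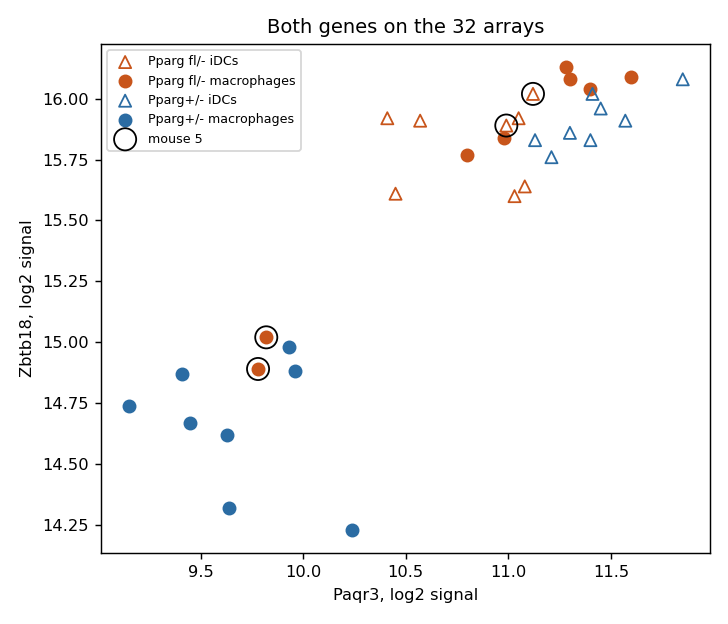
Log2 signal of Paqr3 and of Zbtb18 on the same array, for macrophages (filled circles) and iDCs (open triangles) of Pparg+/- LysCre (blue) and Pparg fl/- LysCre mice (orange), with the arrays of mouse 5 ringed. The macrophages of mouse 5 lie with the Pparg+/- LysCre macrophages at the lower left, and its iDCs lie with the other iDCs.

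Likeness to other genes was measured by r over the 32 arrays among the 166 other tested probes that had a symbol, so it covers a small part of the array. Mapk7, the kinase ERK5, was close to both genes (r = 0.870 with Paqr3 and 0.880 with Zbtb18, and 0.953 and 0.915 over the 8 group means). Its group means ran from 12.64 in vehicle-treated Pparg+/- LysCre macrophages to 13.51 in RSG-treated Pparg+/- LysCre iDCs, a narrower range than that of either gene. H2-Q8 and H2-Q7, class I genes of the major histocompatibility complex with nearly identical sequences that a probe may not separate, had an r of 0.794 and 0.695 for Paqr3 and 0.857 and 0.834 for Zbtb18. H2-Q8 was detected on only 23 of the 32 arrays, with group means of 9.28 to 16.37, so its r and its place rest partly on values not well above background. The 5 closest also held Sgms2, a sphingomyelin synthase, for Paqr3 (r = 0.716, above H2-Q7) and Rnaset2b, a ribonuclease, for Zbtb18 (r = 0.781, below H2-Q7). The closest probes of all had no symbol and are listed as mCG17574.2 for Paqr3 (r = 0.926) and mCG9356.1 for Zbtb18 (r = 0.954).

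Among the probes with a symbol, 3 were in the 5 lowest r for both genes. They were Crip1, lowest for both, which encodes a small LIM domain protein (r = -0.848 with Paqr3 and -0.859 with Zbtb18), Atox1, a copper chaperone (r = -0.801 and -0.841), and Mydgf, a secreted growth factor (r = -0.804 and -0.762). Crip1 fell from 18.95 in vehicle-treated Pparg+/- LysCre macrophages, where both chosen genes were low, to 16.47 in RSG-treated Pparg+/- LysCre iDCs, and stood at 17.98 in vehicle-treated Pparg fl/- LysCre macrophages. For Paqr3 the splicing factor subunit Sf3b5 (r = -0.783) and the nuclear envelope phosphatase Ctdnep1 (r = -0.759) completed the 5 lowest, and for Zbtb18, below Mydgf, the reductase family member Dhrs7b (r = -0.773) and the ubiquitin ligase Ube3a (r = -0.767). Over all probes the lowest r was -0.906 for Paqr3 and -0.957 for Zbtb18.

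Of 14 gene lists drawn up around these genes, 12 had no member with a named probe, among them the Raf-MAPK, SCAP-SREBP and ZBTB lists, the PPARγ targets and the markers of macrophages and dendritic cells. The labels of genotype and cell type were therefore not checked against Pparg or against such markers. Of the 10 other genes of the PAQR family 1 has a named probe, Paqr9, which like Paqr3 encodes a membrane protein. Unlike Paqr3, Paqr9 was lower in iDCs of Pparg+/- LysCre mice. In vehicle-treated Pparg+/- LysCre cells it was at 9.31, 9.29, 8.95 and 8.00 in macrophages of mice 1 to 4. It was not well above background in the iDCs of any of them. Taken against the lowest detected signal or its own if higher, this makes it at least 4.93-fold higher in macrophages, and with RSG at least 4.68-fold. Paqr9 passed the detection filter only through the Pparg+/- LysCre macrophages, so no test of this difference is given. In Pparg fl/- LysCre cells Paqr9 was called lower in iDCs (adjusted p = 0.0144 with vehicle and 0.0108 with RSG, limma). However, only 2 of 4 and 1 of 4 macrophage arrays, and 0 and 1 of 4 iDC arrays, measured it above background. A lower level in iDCs was called for 15.2% and 12.6% of all tested probes in Pparg fl/- LysCre cells with vehicle and RSG. The RSG effect on Paqr9 was called in none of the 4 settings, at adjusted p of 0.111 to 1 (limma).

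Of the erythroid list of 6 genes 2 had a named probe. Hba-a1, which encodes alpha globin of red blood cells, moved with the levels of the 2 genes in macrophages. In vehicle-treated macrophages it was at 7.92, 8.27, 8.13 and 8.22 in mice 1 to 4, not well above background on any of these arrays, and at 8.59, 12.43, 12.67 and 12.21 in mice 5 to 8, with mouse 5 again next to the controls and also not well above background. With RSG it was at 7.28 to 8.32 in the controls and 8.67 in mouse 5, again not well above background, and at 12.15 to 12.47 in mice 6 to 8. In vehicle-treated iDCs it was at 9.35, 9.76, 9.98 and 10.88 in mice 1 to 4 and at 8.57, 10.38, 11.09 and 9.59 in mice 5 to 8, so that the genotypes overlapped. In RSG-treated iDCs it was at 8.43, 8.28, 10.31 and 9.63 in mice 1 to 4 and at 7.23, 11.00, 10.77 and 10.37 in mice 5 to 8. There mice 6 to 8 lay above every Pparg+/- LysCre array. Mice 1, 2 and 5 were not well above background (signal-to-noise ratio of 1.72, 1.59 and 0.8), so their order is not read. The share of all probes with this separation is not given. Eraf, listed under this older name of the alpha globin chaperone Ahsp, was not well above background on any of the 16 macrophage arrays, at a signal-to-noise ratio of at most 2.31, and was detected on 7 of the 16 iDC arrays. These included all 4 RSG-treated Pparg+/- LysCre arrays, where Eraf was at 9.78 ± 0.47 (SD, n = 4). With vehicle it was detected on 1 of 4 iDC arrays of these mice. With RSG it was at least 6.83-fold higher in their iDCs than in their macrophages. Eraf passed the detection filter only through the RSG-treated Pparg+/- LysCre iDCs, so no test is given for it. The part of red blood cell transcripts in the levels of Paqr3 and Zbtb18 was not tested. None of the genes on the lists drawn up for neutrophils, for eosinophils, basophils and mast cells, for lymphocytes and for stromal cells had a named probe, and markers outside these lists were not searched.

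Each of the 4 scan days of the arrays held 2 mice of 1 genotype and all their cultures. Scan day and genotype can thus not be told apart, whereas the cell types and treatments of a mouse were scanned together. Mice 5 and 6, which lay apart for both genes in macrophages, were scanned on the same day.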

How the data were processed

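RNA of 32 cultures was hybridized as digoxigenin-labeled cRNA to single-color Applied Biosystems arrays read by chemiluminescence. The authors deposited per array a background-corrected signal intensity, its standard deviation, quality flags, an assay-normalized signal, and the signal-to-noise ratio, a score per probe. For Paqr3 and Zbtb18 this ratio equalled the signal over its standard deviation. For weak probes it could be below 0 although the signal was above 0, as for Paqr9 (-2.81 at a level of 6.19 in vehicle-treated iDCs of mouse 4). The authors also deposited a table of linear ratios. Against the signals, it equalled the signal over 1 constant for the array and 1 for the probe (0.0157% of values differed by more than 0.01 on the log2 scale). Its column medians were 0.951 to 1.06. The methods of the paper, written for Affymetrix arrays, name the median of the chip and the median of the gene. Whether these gave the constants here was not tested. The scanner software and genome build are not given in the sources used here.

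Signals were log2 transformed and quantile normalized over 32 arrays. Of 33012 noncontrol probes, tests were made on the 16620 that reached a signal-to-noise ratio of 3 on 3 arrays of any group, with limma 3.58.1 in R 4.3.3. Fits of RSG effects used the 16 arrays of a cell type and fits of cell type differences all 32, with a mean per group. The cell type tests served for Paqr9 in Pparg fl/- LysCre cells and for counts over all probes. They are not given for the chosen genes, whose choice used the same macrophage arrays. Tests of cell type or RSG are also not given where a gene passed the detection filter only through the group in which it was high. A call needed a Benjamini-Hochberg adjusted p under 0.05 over all tested probes and at least 1.5-fold. On simulated data with changes of 1 on the log2 scale, the fit recovered 53.0% to 58.5% of changed probes for cell type and 45.0% to 53.5% for RSG, but only 30.0% in macrophages and 24.0% in iDCs when the RSG effects of the genotypes were compared. Symbols came from a RefSeq table of GRCm38.p6 (317 probes) and the study's supplementary tables (8 more). Python 3.11.15, numpy 2.4.6, pandas 2.3.3 and matplotlib were used.

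A replicate number stands for 1 mouse in all its cultures. Deviations of its arrays from group means had a median correlation of 0.284 for a shared cell type and 0.155 otherwise, against -0.071 and -0.020 between mice. The main fits had no term for the mouse. The genes, lists, motifs and tests were chosen with earlier results of these data known. The genes named are both chosen genes, list members that were called or stand in a list with at most 3 measured, and for each chosen gene the 5 named probes with the highest and the 5 with the lowest r. Alternatives were other scalings, detection filters, thresholds, sets of arrays, blocks, the methods' t-test and leaving out each mouse. The number of arrays limits the precision.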

Additional observations from a re-analysis of the deposited data

Results flagged for a closer look

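Of 32 sets of 4 values (levels in a group, or differences within mice), 3 had 1 value far from the other 3, judged by its gap to the nearest value over the range of the set. Chance gives about 1 in 20 such sets. The difference between iDCs and macrophages in Pparg fl/- LysCre mice was far higher in mouse 5 than in mice 6 to 8, for Paqr3 with vehicle (gap over range 0.941) and for Zbtb18 with RSG (0.952). The Paqr3 level in vehicle-treated Pparg fl/- LysCre iDCs was far lower in mouse 8, at 10.45, than in the other mice (0.856).

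Zbtb18 in macrophages was lower with RSG in all 4 Pparg+/- LysCre mice and higher in all 4 Pparg fl/- LysCre mice, a difference of 0.383 on the log2 scale. The share of all probes with such opposite directions is not given, so nothing is read from the pattern. The test of this difference, in a fit with no term for the mouse, did not call it (limma, adjusted p = 1.00, 95% interval -0.46 to 1.23). Under median scaling the mean in Pparg fl/- LysCre macrophages was -0.049.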

How the results depend on the processing

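The cell type difference in Pparg+/- LysCre cells, given without a test, was 1.38 to 1.97 for Paqr3 and 0.81 to 1.43 for Zbtb18 under the alternatives. Only other scalings, the offset and leaving out 1 of mice 1 to 4 could move this estimate. The filters, thresholds, sets of arrays, blocks, the methods' t-test and leaving out 1 of mice 5 to 8 left it unchanged by design. No RSG effect and no difference in RSG effect was called under any. Of 512 values under alternatives, many of them likewise unchanged by design, 40 turned sign, and the cause was not tested. Of these, 38 belong to RSG effects, cell type differences and differences in RSG effect, and 2 to the genotype difference of Zbtb18 in RSG-treated iDCs, which was 0.042 without mouse 4 and 0.062 without mouse 8. Median scaling moved the median over all probes by more than 0.1 in some comparisons (to -0.20 for the cell type difference in vehicle-treated Pparg fl/- LysCre cells). Fits with the mouse as a replicate block left the estimates as they were and changed no call: with that block the lowest adjusted p of an RSG effect was 0.149 (limma), for the -0.31 of Zbtb18 in Pparg+/- LysCre macrophages.

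Under median scaling the RSG effect on Paqr3 was -0.044 in Pparg+/- LysCre macrophages, 0.026 in Pparg+/- LysCre iDCs and -0.052 in Pparg fl/- LysCre macrophages, and with the authors' ratios -0.044, 0.026 and -0.052. That on Zbtb18 in Pparg fl/- LysCre macrophages was -0.049 under both. In Pparg+/- LysCre iDCs it was 0.00026 with the ratios and 0.018 with the assay-normalized signal, and in Pparg fl/- LysCre iDCs -0.12 with the latter. The cell type difference in vehicle-treated Pparg fl/- LysCre cells was -0.069 under both scalings for Paqr3, and for Zbtb18 it was -0.14 under both and -0.098 with the assay-normalized signal. With RSG that of Zbtb18 was -0.071 under both and -0.29 with the assay-normalized signal. The genotype difference of Zbtb18 in RSG-treated iDCs moved from -0.02 to -0.23 under both and to -0.33 with the assay-normalized signal. The difference in RSG effect was 0.0021 for Paqr3 in macrophages with an offset, and -0.14 for Zbtb18 in iDCs with the assay-normalized signal.

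Leaving out each mouse gave an RSG effect on Paqr3 of -0.22 to 0.31 in Pparg+/- LysCre macrophages, -0.25 to 0.0091 in Pparg+/- LysCre iDCs and -0.34 to 0.065 in iDCs of Pparg fl/- LysCre mice, and on Zbtb18 of -0.10 to 0.0062 in Pparg+/- LysCre iDCs. The cell type difference in Pparg fl/- LysCre cells ran from -0.31 to 0.21 (vehicle) and -0.62 to 0.16 (RSG) for Paqr3, and from -0.24 to 0.23 and -0.21 to 0.20 for Zbtb18, lowest in each case without mouse 5. The difference in RSG effect on Paqr3 ran from -0.21 to 0.32 in macrophages and from -0.25 to 0.15 in iDCs. The genotype differences in macrophages were 0.97 to 1.56 for Paqr3 and 0.75 to 1.51 for Zbtb18, highest without mouse 5.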
